A study of Mus musculus with 10 samples.

Results

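The genes described here are 8 protein-coding genes that mark B cells: Cd79a, Cd79b, Blk, Ms4a1, Cr2, Fcer2a, Fcmr and Pax5. They were taken from the table of estimated counts by matching its mouse Ensembl gene identifiers to these symbols in GENCODE release M21, and all 8 were found among its 47333 rows. RNA came from whole lung, the right middle lobe, of 10 naïve C57BL/6J mice aged 12 weeks that were not treated. The compared groups were 5 mice without functional Bpifb1 (KO, 1 male and 4 females) and 5 wild-type mice (WT, 2 males and 3 females). The protein of Bpifb1 is secreted by airway epithelium. How the KO allele was made is not given in the sources used here, and no label ties a mouse to a litter or a sequencing run, so p-values measure the spread between these 10 mice.

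B cells are the lymphocytes that make antibody. Each carries a surface antibody that is held together with a pair of signalling chains, encoded by Cd79a and Cd79b, and this complex is the B cell receptor. Kinases such as Blk start the signal inside the cell, coreceptors such as the complement receptor encoded by Cr2 set how strong it is, and Pax5 is the transcription factor that keeps the cell in the B lineage. In an unchallenged mouse lung most B cells lie in the blood vessels and the tissue around them, and organised follicles are sparse.

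Library totals ran from 21357424 to 28321294 counts. Levels are given in CPM, the count divided by the library total and multiplied by 1000000, with library sizes scaled by TMM (trimmed mean of M values). The genotype labels were checked on Bpifb1, which measured 0.217 to 1.26 CPM in KO and 28.1 to 79.6 CPM in WT mice. KO replicate 5 stands apart: it is labelled female, but its level of Xist, the RNA that silences an X chromosome, was 1.78 CPM, against 273.7 to 407 CPM in the other females, and its summed count of 4 Y-linked genes was 0. Without this mouse 0 of the 8 B cell genes was called, as with it.

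The 8 genes were readily detected in all 10 libraries, from 122 counts for Cr2 to 1807 counts for Cd79a, and all 8 passed the filter on low counts. None differed detectably between KO and WT mice. By edgeR's quasi-likelihood test 0 of 8 passed an adjusted p under 0.05 and 0 of 8 an unadjusted p under 0.05, and the DESeq2 Wald test and limma-voom also called 0 of 8. Over all 18024 tested genes 0.0222% passed the adjusted and 17% the unadjusted threshold. The log2 fold change was above 0 in 4 of the 8 genes and below 0 in the other 4, with a median of 0.01 beside 0.00 (-0.0027) over all tested genes. In none of the 8 did the CPM ranges of KO and WT separate, as they did in 1.88% of tested genes. The 8 genes varied between mice, and did so together. In these whole tissue samples, fewer B cells and less RNA per B cell cannot be told apart.

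The signalling chains of the receptor were the most strongly expressed of the 8 genes. Cd79a (ENSMUSG00000003379; GRCm38 chromosome 7, 24897381 to 24902197, plus strand) encodes the alpha chain. It measured 41.7, 66.8, 49.2, 34.5 and 47.5 CPM in KO replicates 1 to 5, and 47.4, 44.4, 47.0, 45.3 and 60.8 CPM in WT replicates 1 to 5. All 5 WT values lay inside the KO range, with KO replicate 2 the highest mouse and KO replicate 4 the lowest. The means were 47.9 ± 12.0 CPM across KO and 49.0 ± 6.70 CPM across WT mice (n = 5 per genotype, SD), with a log2 fold change of -0.07 (95% interval -0.44 to 0.30, edgeR adjusted p 0.866).

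The 250 bases before the RefSeq start of Cd79a (chr7:24897247-24897496, GRCm38.p6, plus strand) are shown because this promoter serves as a textbook example of B cell gene control, and because its gene followed the other 7 across mice. The other 7 genes also varied together, so this was not particular to Cd79a. GENCODE places the first exon farther upstream, so that the window includes bases it annotates as transcribed. The capitals mark the letters AGGAAGTG, a sequence of the type bound by Ets factors.

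Cd79a: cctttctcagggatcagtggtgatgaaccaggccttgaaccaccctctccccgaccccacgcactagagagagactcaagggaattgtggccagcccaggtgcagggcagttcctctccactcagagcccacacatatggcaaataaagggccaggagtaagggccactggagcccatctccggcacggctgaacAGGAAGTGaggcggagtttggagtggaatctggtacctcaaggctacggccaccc

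RefSeq gave promoter windows for 5 of the 8 genes, Cd79a, Cr2, Pax5, Fcer2a and Fcmr, with 7 windows in all because Fcer2a has several starts. Each was searched on both strands for AGGAAGTG, for the octamer ATGCAAAT and for CCCNNGGG, letters found in sites of the B cell factor Ebf1. The match in Cd79a, which begins 55 bases before the start, was the only one in the 7 windows. Among all 32851 promoter windows of that length, 3.14% held AGGAAGTG, 1.6% the octamer and 11.8% CCCNNGGG. These are matches of exact letters and do not show binding. Sites spelled with other letters are missed, so the lack of a match does not show that a site is absent.

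Cd79b (ENSMUSG00000040592; chromosome 11, 106311341 to 106314762, minus strand) encodes the beta chain. KO replicates 1 to 5 measured 36.5, 62.2, 48.9, 29.6 and 43.9 CPM, and WT replicates 1 to 5 measured 45.1, 41.1, 41.5, 48.3 and 62.3 CPM. KO replicate 2 and WT replicate 5 were nearly level at the top and KO replicate 4 was lowest. The means of 44.2 ± 12.4 CPM across KO and 47.7 ± 8.68 CPM across WT mice (n = 5 per genotype, SD) gave a log2 fold change of -0.17 (95% interval -0.60 to 0.25, edgeR adjusted p 0.683).

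Blk (ENSMUSG00000014453; chromosome 14, 63372836 to 63417037, minus strand) encodes a Src-family kinase that acts just below the receptor. Its values were 10.4, 14.6, 11.6, 8.29 and 13.6 CPM in KO replicates 1 to 5 and 9.94, 8.05, 10.5, 10.9 and 13.9 CPM in WT replicates 1 to 5. Here WT replicate 2, a male, was the lowest mouse, and 4 of the 5 WT values lay inside the KO range. Mean levels were 11.7 ± 2.51 CPM across KO and 10.7 ± 2.12 CPM across WT mice (n = 5 per genotype, SD; log2 fold change 0.08, 95% interval -0.25 to 0.42, edgeR adjusted p 0.827).

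Ms4a1 (ENSMUSG00000024673; chromosome 19, 11249675 to 11266241, minus strand) encodes CD20, a membrane protein of B cells that also serves as an antibody drug target. In KO replicates 1 to 5 it measured 28.9, 52.7, 31.7, 22.4 and 32.2 CPM, and in WT replicates 1 to 5 it measured 22.8, 27.1, 27.1, 28.6 and 35.3 CPM. KO replicate 2 lay well above all other mice, and KO replicate 4 and WT replicate 1 were lowest. The means were 33.6 ± 11.4 CPM across KO and 28.2 ± 4.55 CPM across WT mice (n = 5 per genotype, SD). The log2 fold change of 0.22 (95% interval -0.32 to 0.76, edgeR adjusted p 0.683) was 0.02 without KO replicate 2.

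Cr2 (ENSMUSG00000026616; chromosome 1, 195136811 to 195176716, minus strand) encodes the complement receptor CD21, which B cells and follicular dendritic cells carry. It was the scarcest of the 8 genes. KO replicates 1 to 5 measured 6.34, 10.7, 9.48, 5.99 and 8.93 CPM, and WT replicates 1 to 5 measured 7.08, 5.81, 8.52, 6.39 and 8.08 CPM. The top 3 mice were KO replicates 2, 3 and 5, and the bottom 2 were WT replicate 2 and KO replicate 4. WT mice averaged 7.18 ± 1.13 and KO mice 8.28 ± 2.04 CPM (n = 5 per genotype, SD), with a log2 fold change of 0.16 (95% interval -0.21 to 0.53, edgeR adjusted p 0.668).

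A pair of the genes encode Fc receptors, which bind antibody. Fcer2a (ENSMUSG00000005540; chromosome 8, 3681737 to 3694175, minus strand) encodes CD23, the low-affinity receptor for IgE found on follicular B cells. It measured 7.95, 14.5, 12.0, 6.03 and 11.7 CPM in KO replicates 1 to 5, and 11.2, 9.67, 13.2, 11.5 and 16.5 CPM in WT replicates 1 to 5. WT replicate 5 was highest, and the 2 lowest mice were KO replicates 4 and 1. Its means of 10.4 ± 3.39 CPM across KO and 12.4 ± 2.59 CPM across WT mice (n = 5 per genotype, SD) gave a log2 fold change of -0.32 (95% interval -0.84 to 0.20, edgeR adjusted p 0.509).

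Fcmr (ENSMUSG00000042474; chromosome 1, 130865669 to 130880791, plus strand) encodes the receptor for IgM. Its values were 19.0, 27.5, 24.4, 14.3 and 24.0 CPM in KO replicates 1 to 5 and 19.7, 19.4, 22.5, 22.1 and 27.97 CPM in WT replicates 1 to 5. WT replicate 5 and KO replicate 2 were highest and KO replicate 4 lowest. The means of 21.8 ± 5.20 CPM across KO and 22.3 ± 3.45 CPM across WT mice (n = 5 per genotype, SD) gave a log2 fold change of -0.07 (95% interval -0.45 to 0.31, edgeR adjusted p 0.870).

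Pax5 (ENSMUSG00000014030; chromosome 4, 44524757 to 44710487, minus strand) measured 17.9, 32.3, 21.9, 13.1 and 26.2 CPM in KO replicates 1 to 5 and 16.5, 18.2, 21.7, 19.6 and 24.2 CPM in WT replicates 1 to 5. All 5 WT values fell between the lowest and the highest KO mouse. The means were 22.3 ± 7.41 CPM across KO and 20.0 ± 3.004 CPM across WT mice (n = 5 per genotype, SD; log2 fold change 0.12, 95% interval -0.44 to 0.67, edgeR adjusted p 0.852). Pax5 shares exon bases with genes of the opposite strand that measured at most 0.262 CPM on average, and none of the other 7 genes shares exon bases with another gene of the table.

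**Figure D1:**
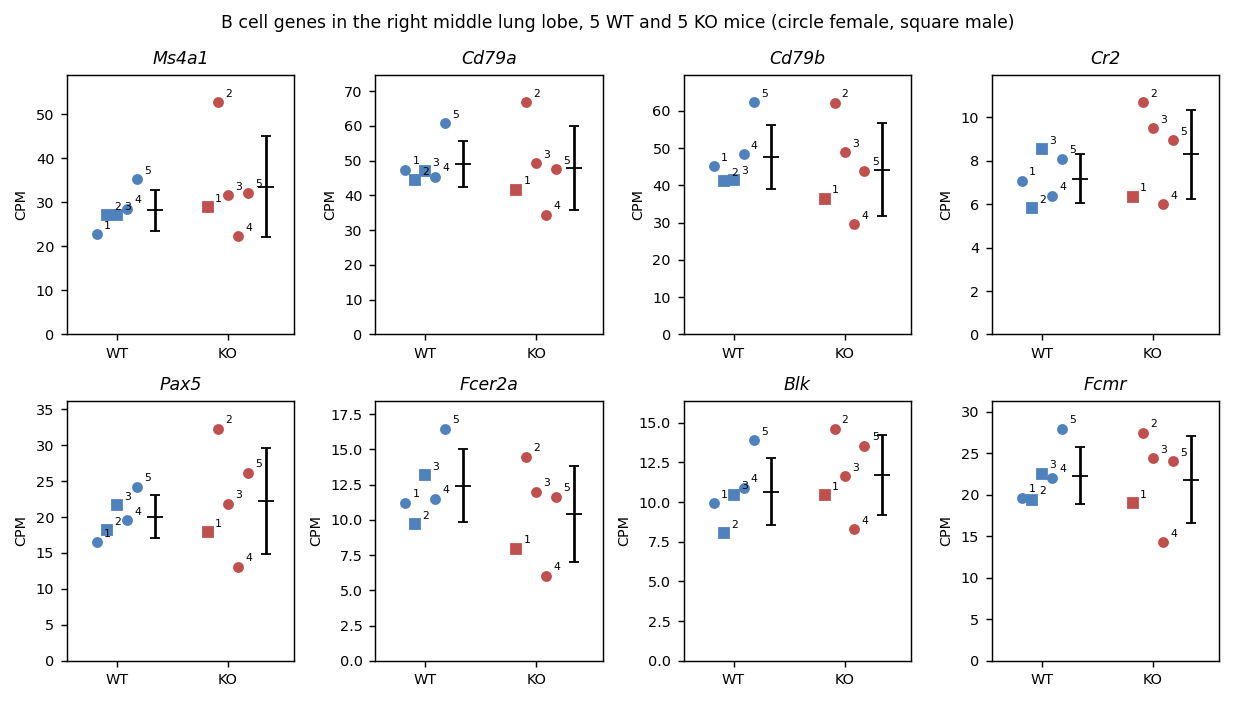
Level of each B cell gene in CPM (vertical axes, from 0) in 5 WT and 5 KO mice. Points are single mice numbered by replicate, circles are females, squares are males, and black bars show the mean with 1 SD; KO replicate 2 and WT replicate 5 sit high and KO replicate 4 sits low in nearly every panel, and the genotypes overlap in all 8.

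**Figure D2:**
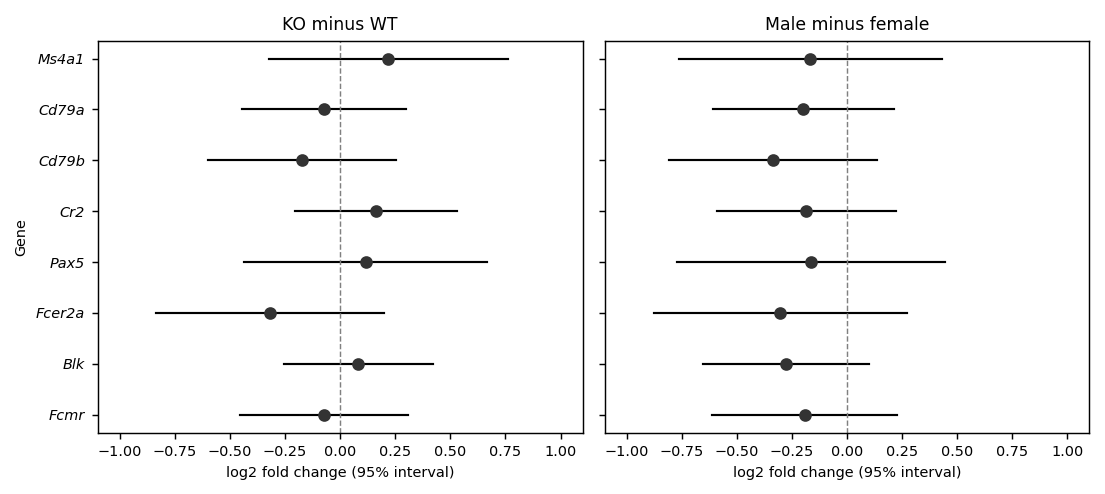
Log2 fold change of each B cell gene with its 95% interval for KO minus WT (left) and male minus female (right), from the fit over all 10 mice. All 16 intervals include 0, and the 8 estimates for sex lie below 0.

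Levels per kilobase of annotated exon were compared between the genes. Over all 10 mice Cd79a stood at 33.3 ± 6.30 and Cd79b at 32.1 ± 7.17 CPM per kilobase (SD, n = 10), and Cd79a exceeded Cd79b in 7 of 10 mice, so this pair did not differ beyond its spread. Fcmr followed at 12.7 ± 2.40 CPM per kilobase and was below Cd79b without overlap. Ms4a1 (4.99 ± 1.40), Blk (4.15 ± 0.838) and Fcer2a (3.69 ± 0.980 CPM per kilobase) followed with overlapping ranges, with Ms4a1 above Blk in 9 and Blk above Fcer2a in 7 of 10 mice. Pax5, below Fcer2a in 10 of 10 mice with overlapping ranges, stood at 2.39 ± 0.617 and Cr2 at 0.953 ± 0.205 CPM per kilobase, without overlap between these last 2. The lengths are those of all annotated exons joined, so a gene with long exons that lung B cells do not use is placed too low.

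Between mice the 8 genes varied more than most. Their coefficients of variation over the 10 mice ran from 18.9% (Fcmr) to 28.1% (Ms4a1), with a median of 21.9%, against a median of 10.6% over all tested genes. Such a spread was not particular to them: the median was 24.1% over 8 NK cell markers, 21.9% over 6 neutrophil markers and 17.6% over 15 T cell markers. The highest mouse exceeded the lowest by 1.82-fold for Blk and by 2.73-fold for Fcer2a. KO replicate 2 was the highest mouse for 5 genes and the second highest for the other 3. WT replicate 5 was highest for Cd79b, Fcer2a and Fcmr. KO replicate 4 was the lowest mouse for 6 genes, and WT replicate 2 for Cr2 and Blk. Summed over the 8 genes, KO mice spanned 134.2 to 281.3 CPM (200.2 ± 54.9, SD, n = 5) and WT mice 173.7 to 249 CPM (197.4 ± 30.0, SD, n = 5), so that both the lowest and the highest mouse were KO.

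**Figure D3:**
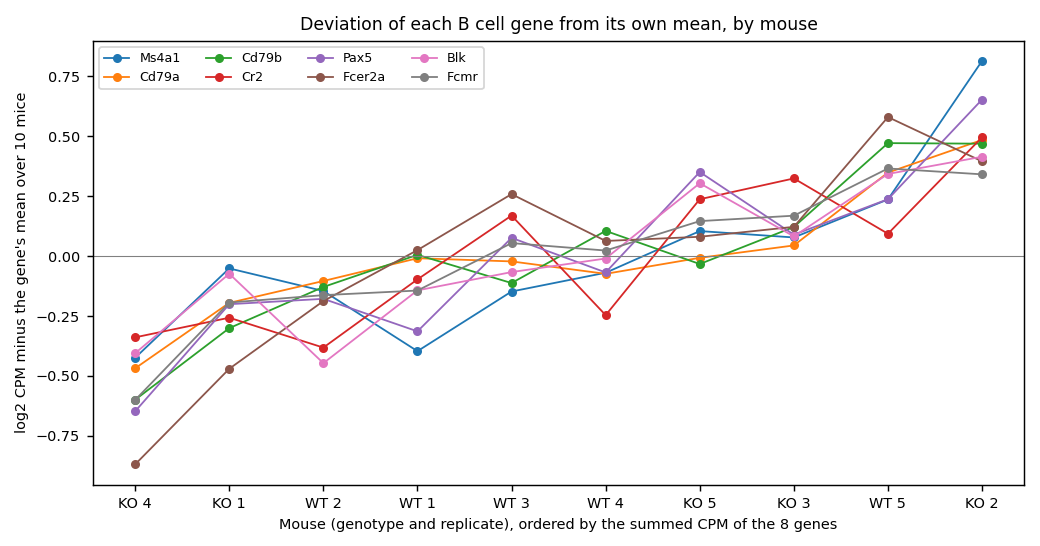
Deviation of each B cell gene from its own mean over the 10 mice (vertical axis, log2 CPM) in each mouse (horizontal axis, ordered by the summed CPM of the 8 genes). Lines join the values of 1 gene; all 8 genes are below their mean in KO replicate 4 and above it in WT replicate 5 and KO replicate 2.

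The genes moved together from mouse to mouse. Over the 28 pairs of genes Pearson's r of log2 CPM ran from 0.631 to 0.962 with a median of 0.821, and Spearman's rho from 0.648 to 0.964 with a median of 0.842 (n = 10 mice). By permutation tests (100000 resamples, two-sided), 27 of the 28 pairs had an adjusted p under 0.05 for Pearson's r and 28 for Spearman's rho. The closest pair was Cd79a with Cd79b (r 0.962, permutation adjusted p 0.00103; rho 0.903), followed by Fcer2a with Fcmr (r 0.946, permutation adjusted p 0.00084; rho 0.964). The loosest pair was Ms4a1 with Fcer2a (r 0.631, permutation adjusted p 0.0581; rho 0.685). Fcmr had the highest mean r with the other 7 genes, 0.883, and Cr2 the lowest, 0.761.

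Without the 2 mice farthest from the median of the first gene of each pair, most often KO replicates 2 and 4, the median r was 0.750 and the lowest 0.428 (Ms4a1 with Fcer2a), where leaving out these mice narrows the range of the first gene by construction. Within genotype and sex, taken as the residuals of a fit on both, the median r was 0.914 and all 28 pairs passed. The libraries of WT replicate 5 and KO replicate 2 were also the deepest of the 10. Across mice, r of log2 CPM with the log2 library total ran from 0.385 (Cr2) to 0.659 (Blk), and rho from 0.188 to 0.576. None of these 8 relations passed (lowest permutation adjusted p 0.178 for r and 0.416 for rho). KO replicate 3 had the smallest library and was above the mean for all 8 genes. Without the largest and the smallest library r ran from 0.341 to 0.788, and the part of library size in the shared spread was not tested further.

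**Figure D4:**
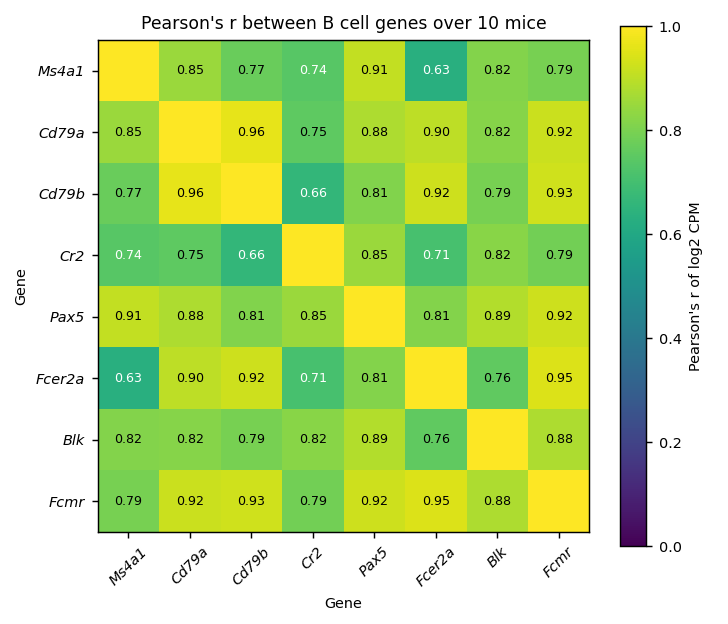
Pearson's r of log2 CPM over 10 mice for each pair of B cell genes (both axes list the genes; the colour scale runs from 0 to 1, and each cell prints its value). All 28 pairs lie at 0.63 or higher, with Cd79a and Cd79b at the top (0.96) and Ms4a1 with Fcer2a at the bottom.

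The sums of other lymphocyte markers were also highest in KO replicate 2 and WT replicate 5, but their lowest mice were others. The summed level of 15 T cell markers was 190.1 CPM in KO replicate 2 and 180.5 CPM in WT replicate 5, against 123.1 to 166.6 CPM in the other 8 mice. That of 8 NK cell markers was 88.1 and 87.0 CPM in the same pair and 37.9 to 85.2 CPM in the others. The lowest mice were KO replicate 1 for T cell and WT replicate 4 for NK cell markers, and KO replicate 4, lowest for B cells, ranked 3 of 10 from the lowest on both lists. Relations of Cd79a with the gene of highest level on each of 14 lists were computed after values were seen. None passed after adjustment over these 14 relations. Thy1 of the T cell list had r 0.735 and rho 0.745 (n = 10, permutation p 0.0119 and 0.0166 unadjusted, 0.167 and 0.116 adjusted). Gzma of the NK cell list had r 0.518 and rho 0.770 (permutation p 0.1335 and 0.0120 unadjusted, 0.780 and 0.116 adjusted). Without KO replicates 2 and 4, r was 0.738 for Thy1 and 0.523 for Gzma. Some of the genes of highest level, such as Cd81, Tcf3 and Sdc1, are active in other cells too. Their relations with Cd79a therefore do not measure the cells of their list alone. Summed alveolar epithelium markers were lowest in KO replicate 2 (23830 CPM), while red blood cell markers ranked 7 and 4 of 10 from the lowest in KO replicate 2 and WT replicate 5. Most of the epithelial sum came from Sftpc, Sftpb and Sftpa1, with means of 14649, 4658 and 3466 CPM over all mice. Its ranking mainly follows these genes. No marker on these lists was at 0 counts in all mice. The part of these cells in the shared spread of the B cell genes was not tested.

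Genes outside the 8 were ranked by their mean r with them over the 10 mice, among 16269 genes with a mean of at least 1 CPM. Among the 10 most similar were Cd22, Lax1, Fcrla, Btk, Bank1, Gm29439, Ltb, Il21r and Btla; the 10 had mean r from 0.908 down to 0.868, where the median of all genes compared was 0.00 (-0.003). Because they were selected for this similarity, no test was made. Cd22, an inhibitory receptor of B cells, measured 29.3 ± 7.22 CPM across KO and 29.0 ± 3.28 CPM across WT mice (n = 5 per genotype, SD). Btk is a kinase of B cell receptor signalling, Bank1 an adaptor of B cell signalling, Ltb the gene of lymphotoxin beta, and Btla an inhibitory receptor shared with T cells. Gm29439 is an antisense RNA that shares 479 exon bases with Cd22. The sources used here do not say if strand entered the counting, and without it reads from Gm29439 and Cd22 cannot be told apart. By Spearman's rho 5 of these 10 genes were again among the first 10, and 6 were after removal of genotype and sex. Membership of these 10 thus depended on the measure. The T cell marker Cd3e, named after its values were seen, ranked 290 with a mean r of 0.652.

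The heavy chain genes of IgD and IgM, which naive B cells make together, differed in this ranking; Ighd was picked out after its values were seen. Ighd ranked 20 with a mean r of 0.847, whereas Ighm, which plasma cells also transcribe, ranked 2873 with a mean r of 0.293. Ighd measured 37.8 ± 9.06 CPM across KO and 41.3 ± 10.1 CPM across WT mice (n = 5 per genotype, SD; log2 fold change -0.19, edgeR adjusted p 0.670). Ighm measured 235.4 ± 41.3 CPM across KO and 283.6 ± 62.0 CPM across WT mice (n = 5 per genotype, SD, a log2 fold change of -0.33 with edgeR adjusted p 0.210).

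The wider B cell genes were taken from lists, each described by its counts. Counts at an unadjusted p under 0.05 between the genotypes stand beside the 17% of all tested genes. In the B cell receptor signalling list all 21 genes were tested and 0 passed an adjusted p under 0.05, with 2 at an unadjusted p under 0.05, both higher in KO. These were Rasgrp3, an exchange factor for Ras proteins (86.1 ± 4.79 CPM across KO and 72.9 ± 10.4 CPM across WT mice, n = 5 per genotype, SD; log2 fold change 0.28, edgeR adjusted p 0.1425), and the kinase gene Syk, named after its values were seen (edgeR adjusted p 0.226). The 2 genes of highest level, Cd81, which encodes a tetraspanin of the cell surface (log2 fold change -0.06) and the kinase gene Lyn (0.00, SE 0.06), are also expressed outside B cells. The list's median log2 fold change was -0.02.

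Of 12 B cell transcription factors 0 passed the adjusted threshold. Their median log2 fold change was 0.13, with 10 of 12 above 0, where 50.7% of all tested genes were below 0. Whether these 12 genes are separate observations was not tested. At an unadjusted p under 0.05 were Ebf1 and Bach2, with log2 fold changes of 0.25 and 0.34, and Spi1, which also acts in macrophages, with -0.16 (edgeR adjusted p 0.266, 0.257 and 0.235). These 3 were named after their values were seen. Those of highest level were Tcf3 (83.5 ± 7.01 CPM across KO and 81.7 ± 3.37 CPM across WT mice), Irf8 (81.3 ± 7.14 and 78.2 ± 9.11 CPM) and Foxo1 (78.6 ± 5.01 and 79.4 ± 6.27 CPM; n = 5 per genotype, SD). None of these 3 passed, and other lung cells express them too.

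Among 18 genes of the B cell surface and of homing to follicles 0 passed, and 1 had an unadjusted p under 0.05, the activation marker Cd69 (log2 fold change 0.43, edgeR adjusted p 0.198), named after its values were seen. The median was 0.01. The chemokine gene Cxcl12 measured 228.2 ± 15.5 CPM across KO and 214.6 ± 37.4 CPM across WT mice. Tnfsf13b, which encodes the B cell survival factor BAFF, measured 36.2 ± 1.92 and 35.8 ± 4.18 CPM (n = 5 per genotype, SD).

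Of antibody constant region and plasma cell genes 17 of 19 listed were tested and 0 passed. The log2 fold change was below 0 in 16 of the 17, beside 50.7% of all tested genes, with a median of -0.28, but antibody genes share their source cells and are not separate observations. At an unadjusted p under 0.05 were 2 of the 17, a smaller share than the 17% of all genes: Ighm and, named after its values were seen, the light chain gene Iglc3 (-0.44, edgeR adjusted p 0.263). Near-identical light chain genes can exchange reads, so Iglc3 is uncertain. The other genes of high level, Sdc1 (log2 fold change -0.10) and Xbp1 (-0.09), are active in epithelium as well. Of the germinal centre list 8 of 9 symbols matched, 5 genes were tested, and 0 passed either threshold. Its genes of highest level, S1pr2, Bcl6 and Fas, had log2 fold changes of -0.06, 0.16 and -0.10.

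No gene passed between the genotypes on the lists of other cells that a lung piece can hold. The counts at an unadjusted p under 0.05 stand beside the 17% of all tested genes. Of 15 T cell markers 4 had an unadjusted p under 0.05 (1 higher and 3 lower in KO), with a median log2 fold change of -0.07 and summed levels of 123.1 to 190.1 CPM in KO and 135.4 to 180.5 CPM in WT mice. For plasmacytoid dendritic cells, which also transcribe some B cell genes, the summed levels of 8 markers were 303.4 to 335 CPM in KO and 270.2 to 305.7 CPM in WT mice, with a median log2 fold change of 0.07 and 1 gene, Runx2, higher in KO at an unadjusted p under 0.05 (0.28, edgeR adjusted p 0.188). Most of these sums came from Tcf4 and Bst2, with means of 185.8 and 68.5 CPM over all mice, so the ranges mainly follow these genes. Their log2 fold changes were 0.18 and -0.07. Lymphatic and lymphoid stroma markers summed to 566.9 to 626.9 CPM in KO and 541.4 to 617.6 CPM in WT mice, with a median log2 fold change of 0.11 and 2 of 8 genes, Prox1 and Reln, higher in KO at an unadjusted p under 0.05 (edgeR adjusted p 0.1885 and 0.283). Lyve1 and Pdpn, with means of 248.5 and 148 CPM over all mice, made up most of these sums. Runx2, Prox1 and Reln were named after their values were seen. Ccl21a, the chemokine gene of lymphatic vessels and lymph node stroma, measured 94.95 ± 7.10 and 94.3 ± 7.76 CPM (n = 5 per genotype, SD). Of 8 NK cell markers 1 had an unadjusted p under 0.05, higher in KO (median 0.13), of 9 alveolar macrophage markers 1, lower in KO (median -0.18), and of 9 dendritic cell and monocyte markers, 6 tested neutrophil markers and 5 red blood cell markers 0 (medians -0.01, -0.03 and 0.01). Of 7 alveolar epithelium markers 4 had an unadjusted p under 0.05, all lower in KO, with a median of -0.16 and summed levels of 23830 to 27156 CPM in KO and 25025 to 29924 CPM in WT mice. These epithelial sums mainly follow Sftpc, Sftpb and Sftpa1. The part of the cells on these lists in the levels of the B cell genes was not tested.

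Between the sexes the B cell genes also did not pass. By the sex term of the same edgeR fit 0 of 8 had an adjusted and 0 of 8 an unadjusted p under 0.05, where 0.583% and 15.1% of all tested genes did. All 8 estimates were lower in males, as were 51.7% of all tested genes, but because the 8 genes vary together they are not 8 separate observations. The log2 fold changes ran from -0.34 for Cd79b (95% interval -0.81 to 0.14) to -0.16 for Pax5 (95% interval -0.77 to 0.45), with a median of -0.19 beside -0.01 for all genes. Cd79b averaged 39.7 ± 2.81 CPM over 3 males and 48.6 ± 11.3 CPM over 7 females (SD), and the male range of 36.5 to 41.5 CPM lay inside the female range of 29.6 to 62.3 CPM. Without KO replicate 4, the female lowest for most of these genes, 4 of the 8 (Cd79b, Blk, Fcer2a and Fcmr) had an unadjusted p under 0.05, beside 14.2% of all genes tested in that fit, and 0 passed the adjusted threshold (lowest edgeR adjusted p 0.206, for Cd79b). Without any other single mouse 0 of 8 had an unadjusted p under 0.05. Over these fits the log2 fold change ran from -0.40 to -0.25 for Cd79b, from -0.28 to -0.02 for Pax5 and from -0.39 to 0.00 (-0.0004) for Cr2.

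For the wider lists the same sex term was read. Of the 18 surface and homing genes 7 had an unadjusted p under 0.05, all lower in males, and 0 passed the adjusted threshold. Of the 15 T cell markers 11 did so, all lower in males, with 0 past the adjusted threshold and a median log2 fold change of -0.31. Both counts stand beside the 15.1% of all tested genes. In receptor signalling 2 of 21 and among transcription factors 2 of 12 genes were lower in males at that threshold, near that share, and of the NK cell markers 0 of 8 (median -0.04). In the germinal centre list 2 genes were higher and 1 lower, with a median of 0.10. Mzb1, a gene of plasma cells and marginal zone B cells, was lower in males (log2 fold change -0.58, edgeR adjusted p 0.0415), and Bcl6, which encodes a germinal centre repressor also found in other cells, was higher (0.52, edgeR adjusted p 0.0494). On the lists of other cells Rtkn2, an alveolar epithelium marker, was higher in males (0.33, edgeR adjusted p 0.0197). These calls depended on single mice: without KO replicate 1 none of the 3 passed (edgeR adjusted p 0.232, 0.252 and 0.119 for Mzb1, Bcl6 and Rtkn2), and over the 10 fits without 1 mouse Mzb1 passed in 1, Bcl6 in 3 and Rtkn2 in 7. Red blood cell markers were higher in males at an unadjusted p under 0.05 in 5 of 5 genes, with summed levels over the 3 males of 13051 to 19495 CPM, and over the 7 females of 11525 to 14063 CPM, and their part in these differences was not tested. With 3 males, 1 of them KO, these comparisons rest on few mice.

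Because the 8 genes rose and fell together between mice, the ratio of 1 gene to another within a mouse was also compared. These ratios were examined after the values were seen. The log2 ratio was compared between the genotypes for all 28 pairs by a two-sided exact permutation test over the 252 ways to divide the mice, of which the smallest possible p is 0.00794. In 10 pairs the exact p was under 0.05, in 3 the genotypes did not overlap, and in 0 did the p adjusted over the 28 pairs fall under 0.05. Ratios of other gene pairs were not examined, so no share over other genes stands beside these counts. For single genes 17% of all tested had an unadjusted edgeR p under 0.05, and 1.88% had CPM ranges without overlap. Those shares are for levels, not ratios, and the edgeR test differs from the exact test. They are therefore no background for the ratio counts. Only a few of the 28 ratios are independent of each other.

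The 3 ratios without overlap involved Ms4a1, Cr2, Fcer2a and Blk. Relative to Cd79a, Ms4a1 stood at -0.53, -0.34, -0.64, -0.62 and -0.56 on the log2 scale in KO replicates 1 to 5 and at -1.055, -0.71, -0.79, -0.66 and -0.78 in WT replicates 1 to 5. KO mice were higher by 0.26 (exact permutation p 0.00794, adjusted over the 28 pairs 0.0741). Relative to Fcer2a, Cr2 was at -0.44 to -0.01 in KO and -1.02 to -0.62 in WT mice, higher in KO by 0.48 (exact permutation p 0.00794, adjusted 0.0741). Relative to Blk, Fcer2a was at -0.45 to 0.05 in KO and 0.08 to 0.33 in WT mice, a difference of -0.42 (exact permutation p 0.00794, adjusted 0.0741). By contrast the ratio of Cd79a to Fcmr averaged 1.13 on the log2 scale in both genotypes, with a difference of 0.00 (-0.0013, exact permutation p 0.984). In the 4 KO and 3 WT females alone the first 2 differences were 0.29 and 0.55 (exact permutation p 0.0286 each, the smallest possible). The third was -0.32 (exact permutation p 0.0857). These females are among the mice in which the 3 ratios were picked for lack of overlap. Their genotypes therefore had to separate in the same direction, and these p-values give no support beyond that choice.

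**Figure D5:**
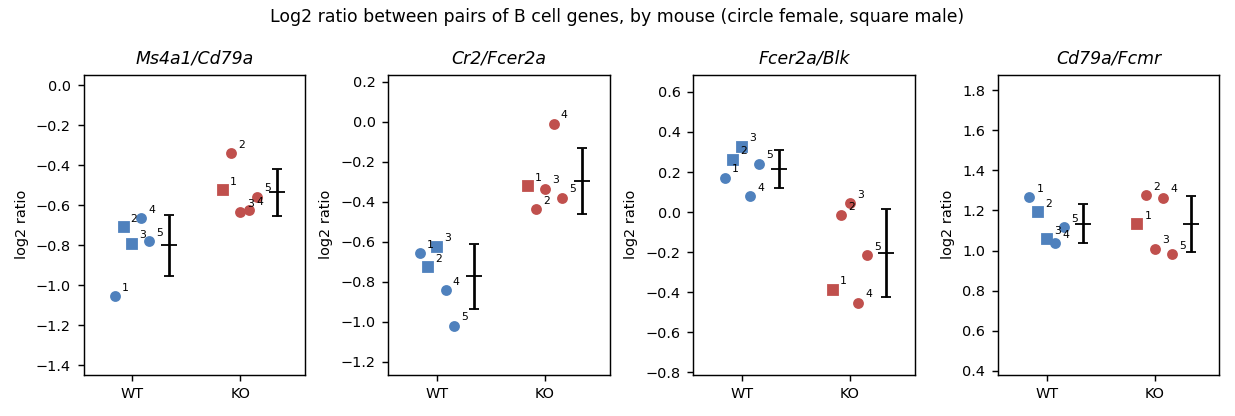
Log2 ratio between 4 pairs of B cell genes (vertical axes, each spanning the same width but not starting at 0) in WT and KO mice, with the mean and 1 SD as black bars, circles for females and squares for males. In the first 3 panels the KO and WT points do not overlap; in the last, Cd79a to Fcmr, they lie at the same level.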

How the data were processed

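The authors deposited 1 table with an estimated count per gene (an expected count that need not be whole) for 10 mice, not scaled between samples. The submitters' processing notes name STAR 2.6.0, Salmon 0.9.1, FastQC and MultiQC with the builds mm10 and GRCm38, without saying which step used which. Libraries were made with a stranded mRNA kit and read as single 50-base reads, per the labels' protocols. Fractional values made up 30.1% of entries above 0 (farther than 0.01 from an integer), so reads were split among features, and genes with close copies are uncertain. Each column belonged to 1 sample, and 0 were left over. Of 47333 identifiers 47281 matched GENCODE M21 (GRCm38).

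Counts were rounded. KO and WT were compared with edgeR 4.0.16 (R 4.3.3; quasi-likelihood test, robust, TMM, sex as covariate, filterByExpr by genotype with a minimum count of 10 and total of 15) with Benjamini-Hochberg adjustment over 18024 genes, called at an adjusted p under 0.05. The script was tested on simulated data. Correlations used log2 CPM with a prior count of 2. A floor of 3 counts equals 0.106 to 0.14 CPM, for counting error only. Replicate numbers follow sample order and link no mice across groups.

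The genes and lists were chosen with earlier results of these data known. The naming rule took from each list the 3 genes of highest mean CPM and any called gene (for lists of other cells, only some are printed; 2 genes that the rule took are not reported here), besides the 8 genes, Bpifb1 and the 10 most similar genes. Alternatives were DESeq2 1.42.0, limma-voom (limma 3.58.1), DESeq2 size factors, other filters, covariates and prior counts, a fit without robust estimation, an adjusted p under 0.1, females alone and leaving out each mouse.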

Additional observations from a re-analysis of the deposited data

Results flagged for a closer look

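Each of the 8 genes was examined within KO and within WT mice for a mouse far from the others, by Dixon's criterion for 5 values. Of these 16 sets 1 stood out, where chance would give about 0.8. Cd79a in WT replicate 5 measured 60.8 CPM, while the other 4 WT mice lay between 44.4 and 47.4 CPM. WT replicate 5 had the largest library.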

How the results depend on the processing

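In all alternatives 0 of the 8 B cell genes passed between the genotypes or the sexes. Over 18 alternative fits their adjusted p between the genotypes ran from 0.385 to 0.99. Direction was less fixed: the log2 fold change of Pax5 turned below 0 without KO replicate 2, and those of Cd79a and Fcmr turned above 0 without KO replicate 4 and, at 0.0201 and 0.0288, without WT replicate 5. Over the fits without 1 mouse Pax5 ran from -0.0384 to 0.2451, Cd79a from -0.2021 to 0.0227 and Fcmr from -0.155 to 0.0410. The log2 fold change of Ms4a1 ran from 0.02 to 0.33 and that of Fcer2a from -0.45 to -0.18. The count of 4 genes called between the genotypes became 346 with the DESeq2 Wald test, 57 at an adjusted p under 0.1, 50 with no filter on low counts, 2 with limma-voom, and 2 to 18 without single mice, 18 being without WT replicate 3. The 105 genes called between the sexes became 436 with DESeq2, 351 at an adjusted p under 0.1, 197 with no filter, 41 with no genotype covariate, and 0 to 195 without single mice, 0 being without KO replicate 1 (the 1 KO male) and 195 without WT replicate 4. The causes were not tested. The median r of 0.821 between the 8 genes was 0.914 in residuals of a fit on genotype and sex and 0.78 to 0.866 without single mice, when 23 to 28 pairs passed. The relation within KO or WT mice alone was not computed, since 5 mice are too few. The 3 ratio differences kept their direction without any single mouse (0.20 to 0.30 for Ms4a1 to Cd79a, 0.40 to 0.51 for Cr2 to Fcer2a, -0.48 to -0.36 for Fcer2a to Blk), an alternative chosen after seeing the data. These 3 were picked for the lack of overlap between the genotypes, so leaving out 1 mouse could not have turned them. No paired analysis was possible because the labels link no KO mouse to a WT mouse.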
